A study of Homo sapiens with 6 samples.

Results

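Enzymes of the pentose phosphate pathway and classic targets of the antioxidant transcription factor NRF2 were followed in MOLM13 cells exposed to the METTL3 degrader ZW27941. The 9 genes were taken by symbol, with no threshold on their values but with earlier results of these data known, from the 56305 genes of the count tables. PGD, TKT and TALDO1 encode pentose phosphate enzymes, and of these only that of PGD makes NADPH. NQO1, HMOX1, TXNRD1, SRXN1, GCLC and GCLM encode enzymes of quinone, heme, thioredoxin, peroxiredoxin and glutathione metabolism. All 9 were present and all 9 passed the expression filter.

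MOLM13 is an acute myeloid leukemia line with an internal tandem duplication of FLT3 and a rearrangement between chromosomes 9 and 11. Both groups are of this line and carry these alleles. Cells were kept for 24 h either in DMSO, the solvent, or in ZW27941 at 1 μM, with 3 RNA libraries per condition. ZW27941 is a proteolysis-targeting chimera, a compound that links METTL3, the enzyme that writes m6A on mRNA, to the VHL ubiquitin ligase. The libraries are from 1 cell line at 1 dose and 1 time, and a compound that binds METTL3 without degrading it was not analysed here. Nothing in the labels says that the libraries of a group came from separate cultures, so p-values measure the spread between these libraries, which may be technical.

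The libraries held 143454176 to 153825333 counts on genes in DMSO and 143621822 to 178744976 on ZW27941. These totals exceed the number of raw reads per sample stated for the study, for a reason not known. Of the 10 myeloid leukemia markers, 9 were above 45 CPM (counts per 1000000 counts on genes, scaled by edgeR's TMM factors) in every library and CD68 was below 0.25 CPM. HBB and HBA1 were at 0, and CD3E, EPCAM and CDH1 did not exceed 0.035 CPM in any library. The summed level of the myeloid markers ran from 2212 to 2267 CPM in DMSO and from 2446 to 2513 CPM on ZW27941, and its part in the results was not tested. Of the other markers, CD4, which myeloid cells also express, made up nearly all of the summed T cell level (219.6 to 233.8 CPM over the 6 libraries), and the summed B cell, epithelial and fibroblast markers stayed below 8 CPM. ZW27941 replicate 3 had the largest share of reads aligned to several places, 5.25% against 3.63% to 4.07% in the other libraries, so values without it are given where they matter.

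The pentose phosphate pathway takes glucose 6-phosphate either through an oxidative branch, which reduces NADP+ to NADPH, or through a reversible non-oxidative branch, which exchanges carbon between pentoses and glycolysis. NADPH is the electron donor that keeps glutathione and thioredoxin reduced. NRF2, encoded by NFE2L2, is held at a low level by KEAP1, which presents it for ubiquitination. When KEAP1 is modified by oxidants or electrophiles, NRF2 accumulates, pairs with small MAF proteins and binds antioxidant response elements of its target genes, while BACH1 represses some of the same sites, HMOX1 among them. Myeloid cells use these systems beside an NADPH oxidase that itself consumes NADPH.

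The antioxidant response element has the core TGACNNNGC, where N is any base, and promoters of the members were searched for it on both strands because it is the one sequence feature by which most of them are known. RefSeq promoters (GRCh38.p14, 250 bases before to 50 bases from the annotated start) were at hand for 8 of the 9 members, HMOX1 being the other one, with 2 starts for TXNRD1. The core lay in the promoters of 3 of these 8 genes, PGD, GCLM and TXNRD1. Counted by promoter, it lay in 4 of the 9 promoters of members, with both starts of TXNRD1 counted. Among the promoters at hand for genes tested it lay in 2240 of 15557, or 14.4%. Promoters with the core are shown in full, 5′ to 3′ on the gene's strand, with the core in capitals, and that of NQO1 is shown beside them because its change on ZW27941 was close to that of PGD while its window holds no core.
PGD promoter, chr1:10398814-10399113, plus strand: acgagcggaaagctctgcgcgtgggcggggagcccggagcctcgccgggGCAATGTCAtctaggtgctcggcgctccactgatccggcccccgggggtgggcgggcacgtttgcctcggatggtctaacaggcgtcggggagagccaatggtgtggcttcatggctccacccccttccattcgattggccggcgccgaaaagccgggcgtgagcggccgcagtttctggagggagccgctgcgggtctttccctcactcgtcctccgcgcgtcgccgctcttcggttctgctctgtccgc
GCLM promoter, chr1:93909381-93909680, minus strand: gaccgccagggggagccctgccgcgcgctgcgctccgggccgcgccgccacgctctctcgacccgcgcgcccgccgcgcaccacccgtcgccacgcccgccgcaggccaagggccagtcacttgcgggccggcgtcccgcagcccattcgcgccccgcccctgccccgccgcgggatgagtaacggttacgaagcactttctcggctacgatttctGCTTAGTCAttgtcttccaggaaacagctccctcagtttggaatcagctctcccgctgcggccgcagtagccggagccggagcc
TXNRD1 promoter of the upstream start, chr12:104215529-104215828, plus strand: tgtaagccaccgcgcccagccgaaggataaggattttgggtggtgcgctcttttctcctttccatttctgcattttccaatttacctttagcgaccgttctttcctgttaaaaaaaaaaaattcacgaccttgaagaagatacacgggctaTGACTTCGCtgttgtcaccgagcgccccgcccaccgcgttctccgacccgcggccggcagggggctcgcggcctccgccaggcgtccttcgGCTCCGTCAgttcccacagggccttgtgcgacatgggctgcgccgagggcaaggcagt
TXNRD1 promoter of the downstream start, chr12:104286782-104287081, plus strand: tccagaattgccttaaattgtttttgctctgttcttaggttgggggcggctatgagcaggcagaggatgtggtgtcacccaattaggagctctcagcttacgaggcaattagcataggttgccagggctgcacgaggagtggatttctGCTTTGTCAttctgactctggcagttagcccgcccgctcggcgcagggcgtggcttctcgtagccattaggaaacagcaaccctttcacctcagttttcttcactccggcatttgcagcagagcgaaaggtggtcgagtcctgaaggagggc
NQO1 promoter, chr16:69726511-69726810, minus strand: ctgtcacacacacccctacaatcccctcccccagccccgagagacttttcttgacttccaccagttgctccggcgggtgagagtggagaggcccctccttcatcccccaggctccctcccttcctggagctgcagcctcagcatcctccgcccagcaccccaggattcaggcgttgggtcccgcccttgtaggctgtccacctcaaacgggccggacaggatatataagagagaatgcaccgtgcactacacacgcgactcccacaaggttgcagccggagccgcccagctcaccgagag
In GCLM the core began 34 bases before the start and read tgactaagc on the opposite strand, and in PGD it began 201 bases before the start and read tgacattgc on the opposite strand. TXNRD1 had tgacttcgc on the gene's strand and tgacggagc on the opposite strand in the upstream window, and tgacaaagc on the opposite strand in the downstream window. A match is a description of these letters, and its absence from a window of 300 bases says nothing about NRF2 at that gene.

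Of the 9 members, 4 rose on ZW27941 (PGD, NQO1, GCLC and TXNRD1), 2 fell (TKT and HMOX1) and 3 did not pass the test (TALDO1, GCLM and SRXN1). The test was edgeR's quasi-likelihood test with a Benjamini-Hochberg adjusted p under 0.05 over all 20399 genes tested. Over all genes tested, 30.1% passed, 16.3% as higher and 13.8% as lower. The share was larger at higher abundance, and among genes within 0.5 log2 CPM of PGD, TALDO1 or TXNRD1 it was 51.1% to 51.2%. When upper quartile factors replaced TMM, 57.9% of all genes called were lower, against 45.8% with TMM. The same 6 members had no overlap between the 3 DMSO and the 3 ZW27941 libraries, as had 41.6% of all genes tested. The log2 fold changes of the members ran from −0.19 to 0.28 with a median of 0.053, where the median of all genes tested was −0.0019. In RNA from a whole culture, fewer cells that express a gene and less RNA per cell cannot be told apart.

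**Figure D1:**
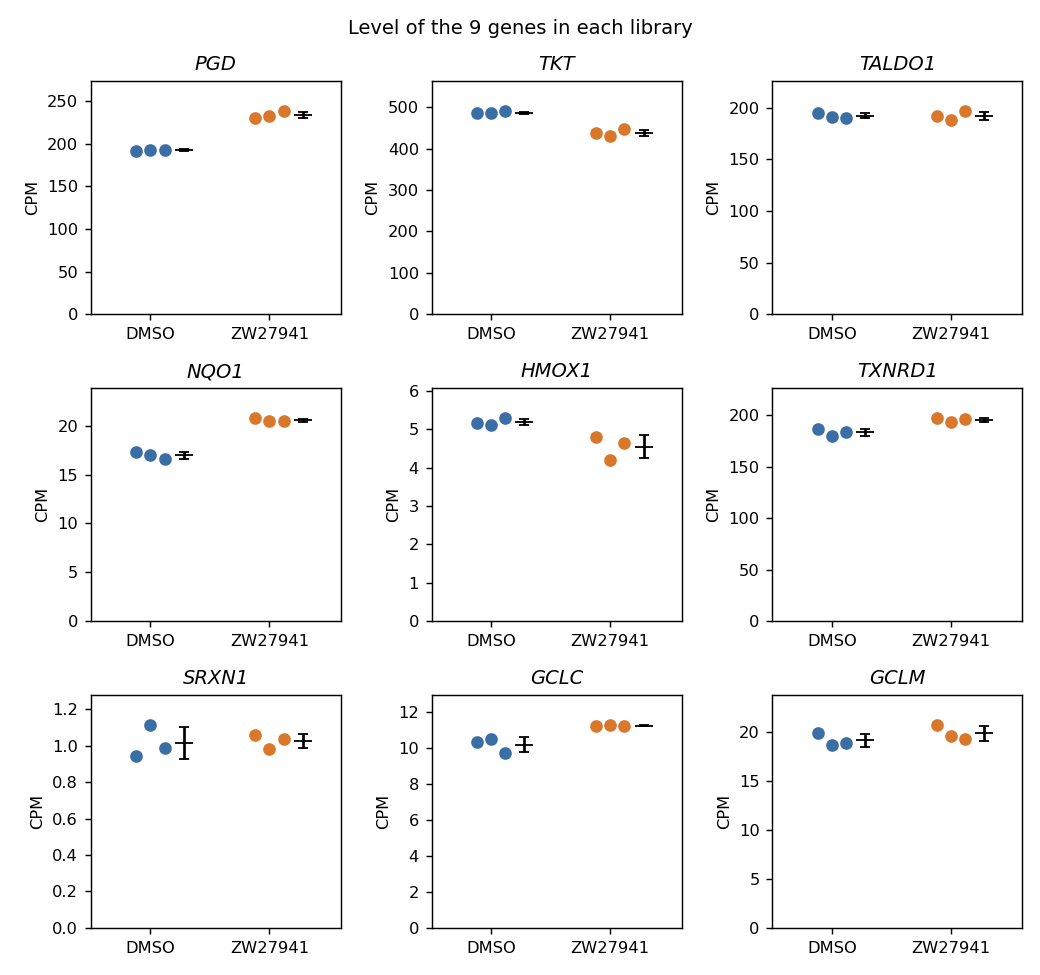
CPM (TMM-scaled counts, linear axis from 0) of each of the 9 genes in the 3 DMSO (blue) and 3 ZW27941 (orange) libraries, with the mean and SD of each group in black beside the points. PGD and NQO1 are higher in all 3 ZW27941 libraries, TKT and HMOX1 are lower in all 3, and the groups overlap for TALDO1, SRXN1 and GCLM.

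PGD encodes 6-phosphogluconate dehydrogenase, which makes the second NADPH of the oxidative branch (chr1:10398592-10420144, GRCh38, plus strand). It was at 191.7, 192.7 and 193.1 CPM in the DMSO libraries and at 230.2, 232.4 and 237.7 CPM in the ZW27941 libraries. The lowest ZW27941 library lay well above the highest DMSO library, and the mean rose by 21.3%. The log2 fold change was 0.28 (95% interval 0.23 to 0.33, standard error (SE) 0.024, edgeR quasi-likelihood adjusted p = 1.80e-08).

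PGLS, the lactonase of the branch, gave no such rise. It was at 114.7, 118.1 and 112.6 CPM in DMSO and at 111.0, 110.6 and 113.4 CPM on ZW27941, and the groups overlapped. Its log2 fold change was −0.044 (95% interval −0.097 to 0.0097) with an edgeR adjusted p of 0.219. Of the 4 genes listed for the branch, PGD was the one that passed, where 30.1% of all genes tested passed. Without DMSO replicate 3 the number called in the branch was 2.

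TKT encodes transketolase, which moves 2-carbon units in the non-oxidative branch (chr3:53224707-53256052, minus strand). The DMSO libraries held 485.0, 485.3 and 489.9 CPM and the ZW27941 libraries 437.4, 431.1 and 446.5 CPM. All ZW27941 values were below all DMSO values, and the mean fell by 9.94%. The log2 fold change was −0.15 (95% interval −0.20 to −0.10, SE 0.024, edgeR quasi-likelihood adjusted p = 5.63e-05).

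TALDO1 encodes transaldolase, the partner of transketolase, which moves 3-carbon units (chr11:747329-765024, plus strand). Its DMSO libraries were at 195.0, 191.1 and 190.4 CPM and its ZW27941 libraries at 191.7, 188.4 and 196.5 CPM. The groups overlapped fully, and the log2 fold change of 0.00045 had a 95% interval from −0.051 to 0.052 (edgeR adjusted p = 0.991), which does not include the fall of TKT. By edgeR's quasi-likelihood test, 3 of the 6 non-oxidative branch genes were lower, against 13.8% of all genes tested, and 0 were higher. At an unadjusted p under 0.05 the numbers were the same, and under DESeq2 the number called was also 3. Besides TKT these were TKTL1, a paralog of transketolase at a low level (log2 fold change −0.50, 1.82 ± 0.0922 to 1.29 ± 0.101 CPM, SD, n = 3 each), and RPE, ribulose-phosphate epimerase (log2 fold change −0.10). RPE did not pass without DMSO replicate 3 (log2 fold change −0.080, edgeR adjusted p = 0.0721).

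NQO1 encodes NAD(P)H quinone dehydrogenase, which reduces quinones by 2 electrons and is a standard readout of NRF2 (chr16:69706996-69726951, minus strand). It was at 17.3, 17.0 and 16.6 CPM in DMSO and at 20.8, 20.5 and 20.5 CPM on ZW27941. The 3 ZW27941 libraries lay close together and above every DMSO library, a rise of the mean by 21.2%. The log2 fold change was 0.28 (95% interval 0.21 to 0.35, SE 0.034, edgeR quasi-likelihood adjusted p = 2.04e-06). In GENCODE v29, 17.7% of the exon bases of NQO1 are shared with an antisense gene, and the sources do not say whether counting used strand.

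HMOX1 encodes heme oxygenase 1, which opens heme to biliverdin, iron and carbon monoxide (chr22:35380361-35394214, plus strand). The DMSO libraries were at 5.16, 5.11 and 5.29 CPM and the ZW27941 libraries at 4.80, 4.21 and 4.63 CPM. All ZW27941 values were lower, with replicate 2 the lowest, and the mean fell by 12.3%. The log2 fold change was −0.19 (95% interval −0.33 to −0.047, SE 0.068, edgeR quasi-likelihood adjusted p = 0.0396). This call is close to the threshold. It did not pass without ZW27941 replicate 2 (log2 fold change −0.14, edgeR adjusted p = 0.190), without any 1 of the 3 DMSO libraries (adjusted p = 0.0747 to 0.118), with library size only (0.0537) or with no filter on low counts (0.0570).

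TXNRD1 encodes cytosolic thioredoxin reductase, a selenoprotein that uses NADPH to reduce thioredoxin (chr12:104215779-104350305, plus strand). It was at 186.2, 179.4 and 184.2 CPM in DMSO and at 197.1, 193.2 and 195.9 CPM on ZW27941. The groups did not overlap, and the rise of the mean was 6.63%. The log2 fold change was 0.093 (95% interval 0.042 to 0.14, SE 0.024, edgeR quasi-likelihood adjusted p = 0.00550).

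SRXN1 encodes sulfiredoxin, which repairs over-oxidized peroxiredoxins (chr20:646615-653370, minus strand). It had 135 to 168 counts in the DMSO libraries and 142 to 191 in the ZW27941 libraries, or 0.942, 1.11 and 0.988 CPM against 1.06, 0.985 and 1.04 CPM. The groups overlapped, and a difference was not detectable with so few counts (log2 fold change 0.019, 95% interval −0.22 to 0.26, edgeR adjusted p = 0.920). That interval is wide enough to include the change of TKT as well as that of TXNRD1. In GENCODE v29, 84.95% of the exon bases of SRXN1 are shared with another gene on the same strand. HTSeq leaves out reads that fall in 2 genes, so if the authors' annotation held that gene, the counts cover a small part of the transcript and its level is uncertain.

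Glutamate-cysteine ligase, which makes the first and rate-limiting step of glutathione synthesis, is a dimer of the catalytic subunit GCLC and the modifier subunit GCLM. GCLC (chr6:53497341-53616970, minus strand) was at 10.4, 10.5 and 9.73 CPM in DMSO and at 11.3, 11.3 and 11.2 CPM on ZW27941. The ZW27941 libraries lay above all DMSO libraries, and the mean rose by 10.4% (log2 fold change 0.14, 95% interval 0.047 to 0.24, edgeR quasi-likelihood adjusted p = 0.0223). The call was lost without DMSO replicate 3, without ZW27941 replicate 1 or 2 (adjusted p from 0.0509 to 0.137) and with upper quartile normalization (0.0527). GCLM (chr1:93885205-93909456, minus strand) was at 19.9, 18.6 and 18.9 CPM in DMSO and at 20.7, 19.5 and 19.2 CPM on ZW27941. Its groups overlapped (log2 fold change 0.053, 95% interval −0.024 to 0.13, edgeR quasi-likelihood adjusted p = 0.311).

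**Figure D2:**
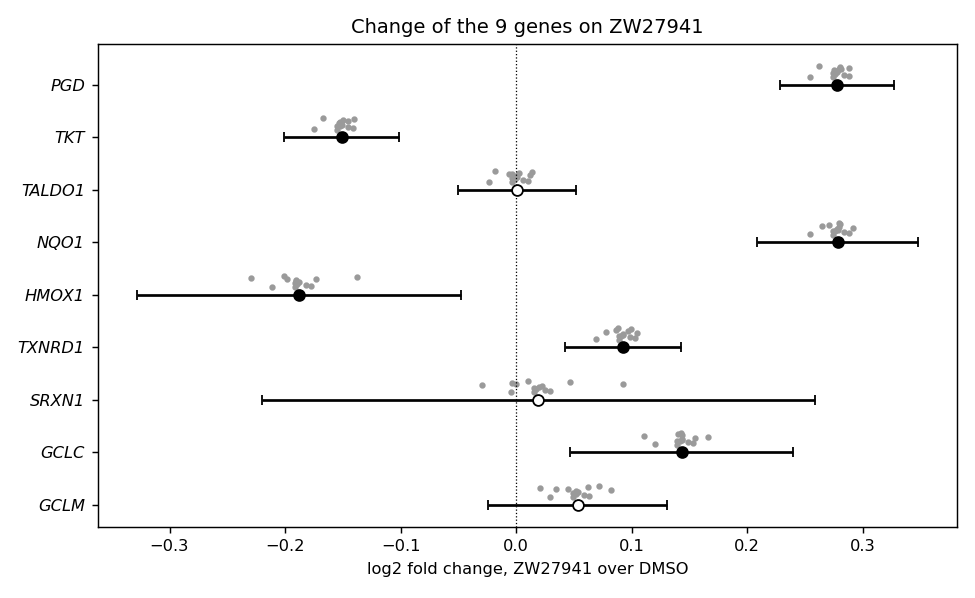
Log2 fold change of each gene on ZW27941 over DMSO (black circles, filled where the adjusted p was under 0.05) with its 95% interval, and the 14 values from other normalizations, filters, tests and left-out libraries (grey dots). PGD, NQO1 and TXNRD1 stay above 0 and TKT stays below 0 in all 14, while the dots of TALDO1 and SRXN1 fall on both sides of 0.

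Per kilobase of exon in GENCODE v29, the level in DMSO was highest for PGD (64.9 ± 0.249 CPM per kb, SD, n = 3) and TALDO1 (64.0 ± 0.840), which did not differ beyond their spread. They were followed by TKT (51.2), TXNRD1 (27.3), NQO1 (5.21), GCLM (3.53), HMOX1 (2.16), GCLC (1.18) and SRXN1 (0.376), and each of these steps was larger than the spread between libraries. On ZW27941 the level per kb was 78.7 ± 1.30 for PGD, 64.0 ± 1.35 for TALDO1 and 46.1 ± 0.814 for TKT (SD, n = 3 each). On this scale PGD stood clear of TALDO1 on ZW27941. All annotated exons of a gene were counted in its length, which came to 9507 bases for TKT and 2966 for PGD, so seldom used exons lower the value of TKT.

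Ratios of 2 genes within a library do not depend on how libraries are scaled to each other. For pairs of genes, not all of them direct partners, the log2 ratio of counts was compared between conditions with a two-sided exact permutation test. The smallest possible p of this test with 3 against 3 libraries is 0.1, so no pair could pass a threshold of 0.05. The ratio of PGD to TKT was −1.34, −1.33 and −1.34 in DMSO and −0.93, −0.89 and −0.91 on ZW27941, a difference of 0.43 on the log2 scale (exact p = 0.1, adjusted p = 0.14 over the 7 pairs tested, of which 6 are given). The ratio of NQO1 to HMOX1 was higher by 0.47, also with no overlap of the groups and with the same exact p. The ratio of TKT to TALDO1 was lower by 0.15 in all 3 ZW27941 libraries. Every one of these gaps was larger than the range within either group. PGD and NQO1 were higher and TKT and HMOX1 lower in all 3 ZW27941 libraries. The separation of their ratios follows from those levels and is no further support. The same holds for TXNRD1 over TXN, given next.

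The ratio of TXNRD1 to TXN, its substrate thioredoxin, was higher by 0.24 without overlap (0.097, 0.084 and 0.078 in DMSO against 0.36, 0.34 and 0.27 on ZW27941). TXN itself fell from 172.6 ± 2.86 to 156.4 ± 5.57 CPM (SD, n = 3 each), a log2 fold change of −0.14. The ratio of GCLC to GCLM overlapped between conditions (difference 0.092, exact permutation p = 0.2), and whether the subunits changed unequally could not be settled with 3 against 3 libraries. The ratio of SRXN1 to PRDX1, a peroxiredoxin, also overlapped (difference 0.064, exact permutation p = 0.5).

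**Figure D3:**
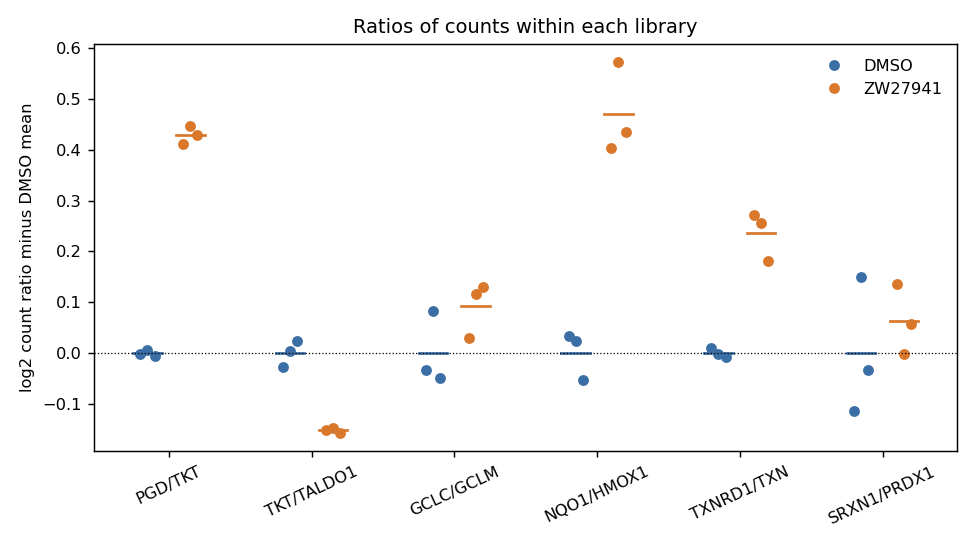
Log2 ratio of the counts of 2 genes within each library, minus the mean ratio of the DMSO libraries, for 6 pairs, with points for libraries and lines for group means (DMSO blue, ZW27941 orange). The ZW27941 points lie apart from the DMSO points in 4 pairs, above them in 3 and below them for TKT/TALDO1, and they overlap for GCLC/GCLM and SRXN1/PRDX1.

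Around the members, 107 other genes of NADPH and NADP supply, NRF2 control, glutathione and thioredoxin metabolism were read from the same fit. Of the 98 that were tested, 11 were higher and 32 were lower on ZW27941, with a median log2 fold change of −0.043. With upper quartile normalization 10 were higher and 38 lower. Over all genes tested, 16.3% were higher and 13.8% were lower, and the share called was larger at higher abundance. No list was tested as a set against these shares. A gene can stand in more than 1 of the lists, and the counts by list that follow include members.

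Among the regulators of NRF2, 3 of the 12 tested were higher and 3 were lower. NFE2L2, which encodes NRF2, rose from 58.7 ± 1.44 to 63.4 ± 0.932 CPM (SD, n = 3 each), a log2 fold change of 0.11 (SE 0.027, edgeR quasi-likelihood adjusted p = 0.00394). KEAP1, which directs NRF2 to degradation, rose from 97.8 ± 0.709 to 110.2 ± 3.40 CPM (SD, n = 3 each), a log2 fold change of 0.17 (edgeR adjusted p = 3.38e-05). SQSTM1 encodes p62, a cargo receptor that can sequester KEAP1 and is itself an NRF2 target. It fell from 234.2 ± 6.60 to 194.8 ± 1.27 CPM (SD, n = 3 each), a log2 fold change of −0.27 (edgeR adjusted p = 7.87e-08). Of the small MAF partners, MAFF and MAFK were lower (−0.31 and −0.090) and MAFG was higher (0.071). MAFG did not pass when DMSO replicate 1 or 3 or ZW27941 replicate 2 or 3 was left out (0.058 to 0.072) or with upper quartile normalization (0.048), and MAFK did not pass without ZW27941 replicate 2 (−0.078). The repressor BACH1 had a log2 fold change of 0.061 (95% interval −0.0088 to 0.13), which passed without ZW27941 replicate 3 (0.096, edgeR adjusted p = 0.0167).

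Of the other NRF2 targets, 4 of the 25 tested were higher and 6 were lower. FTH1, the ferritin heavy chain that stores iron, fell from 1091 ± 15.04 to 856.2 ± 11.1 CPM (SD, n = 3 each), a log2 fold change of −0.35 (edgeR quasi-likelihood adjusted p = 1.09e-09). FTL, the ferritin light chain, had a log2 fold change of −0.11. Both ferritin genes have processed pseudogenes that could take some of their reads. The other targets that passed as lower were AKR1C3, TXN, UGDH and FECH (log2 fold changes −0.79, −0.14, −0.15 and −0.095). AKR1C3 was at a low level (0.576 CPM in DMSO and 0.332 CPM on ZW27941). SLC48A1, which transports heme, rose by 0.31 on the log2 scale, and CBR1 and CBR3, carbonyl reductases that use NADPH, rose by 0.19 and 0.30. SLC7A11, which imports cystine for glutathione synthesis, had a log2 fold change of 0.18 (edgeR quasi-likelihood adjusted p = 0.00337) although 1 ZW27941 library lay within the DMSO range. SLC3A2, listed with SLC7A11 in the glutathione system, fell from 128.3 ± 4.08 to 113.3 ± 1.87 CPM (SD, n = 3 each). Its log2 fold change was −0.18 (edgeR quasi-likelihood adjusted p = 2.66e-05), and cystine import was not measured. GSR and PRDX1, which are often listed as NRF2 targets, did not pass (log2 fold changes −0.0082 and −0.042).

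Of the 12 genes tested in the list of other NADPH and NADP sources, 4 were lower and 0 were higher by edgeR's quasi-likelihood test. The list is not limited to enzymes that make NADPH, and which cofactor each enzyme used was not measured. These counts are therefore not a reading of NADPH supply. At an unadjusted p under 0.05 there were 4 lower and 1 higher, MTHFD2L, and by DESeq2 4 were called. The genes that fell were 3 enzymes of folate metabolism, MTHFD2, ALDH1L2 and MTHFD1, and the mitochondrial malic enzyme ME2. MTHFD2 went from 289.1 ± 0.871 to 246.5 ± 1.85 CPM (SD, n = 3 each), a log2 fold change of −0.23, and ALDH1L2, mitochondrial formyltetrahydrofolate dehydrogenase, of −0.26. MTHFD2L, a paralog of MTHFD2, had a log2 fold change of 0.16 that missed the threshold and passed without ZW27941 replicate 3 (0.19), with library size only (0.17) and with a replicate block (0.16).

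In the glutathione system, 4 of the 28 genes tested were higher and 8 were lower. OPLAH, 5-oxoprolinase of glutathione breakdown and resynthesis, had a log2 fold change of −0.30, and GLRX5, a mitochondrial glutaredoxin of iron-sulfur cluster assembly, of 0.27. The glutathione peroxidases GPX1 and GPX4 were lower by edgeR's quasi-likelihood test (−0.15 and −0.13). GSS, glutathione synthetase, which follows GCLC and GCLM, had a log2 fold change of 0.049 (95% interval −0.0089 to 0.11), and GSR, glutathione reductase, which spends NADPH, of −0.0082 (95% interval −0.063 to 0.047). Neither passed.

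Of the 19 thioredoxin and peroxiredoxin genes tested, 2 were higher (TXNRD1 and MSRB3) and 7 were lower. MSRB3, a methionine sulfoxide reductase, did not pass without DMSO replicate 2 (log2 fold change 0.12). SESN2, a sestrin induced by stress, had a log2 fold change of −0.35 and TXNIP, which binds and inhibits thioredoxin, of −0.20. PRDX2 and PRDX5 were lower (−0.14 and −0.19), and PRDX1 did not pass (340.1 ± 5.89 CPM on ZW27941 against 350.2 ± 2.62 CPM in DMSO, SD, n = 3 each). Of the 7 superoxide, peroxide and quinone genes tested, NQO1 and HMOX2 were higher and HMOX1, SOD1, SOD2 and CAT were lower. HMOX2, the constitutive heme oxygenase, went from 27.4 ± 1.63 to 35.0 ± 0.606 CPM (SD, n = 3 each), a log2 fold change of 0.35, the opposite sign to HMOX1. SOD2, the mitochondrial superoxide dismutase, had a log2 fold change of −0.25.

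**Figure D4:**
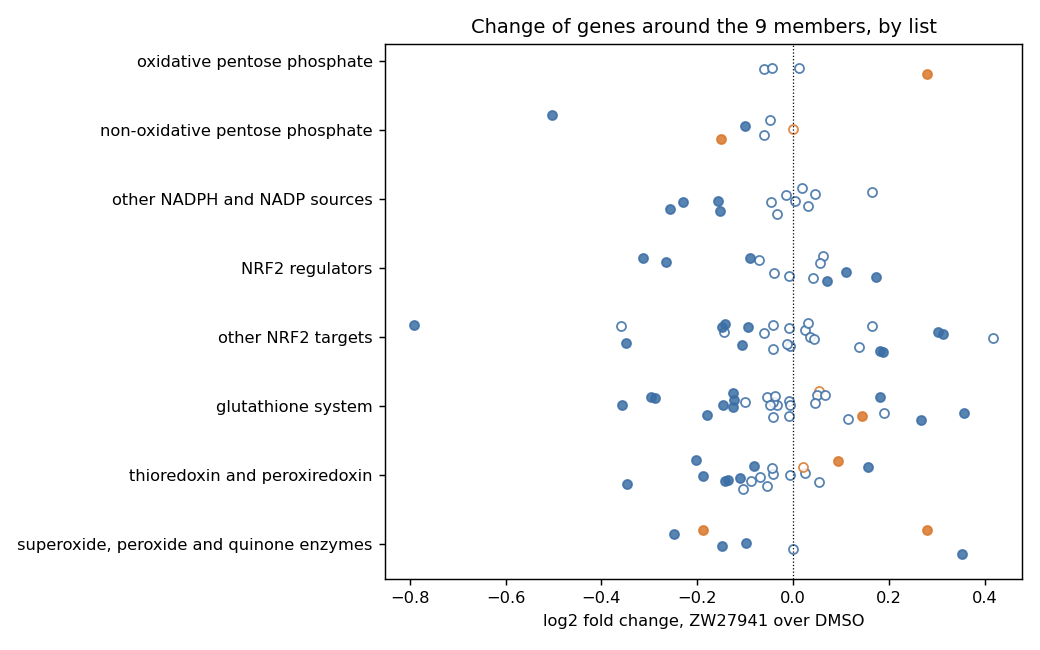
Log2 fold change on ZW27941 over DMSO of each gene tested, in rows by list (orange, the 9 members, blue, other genes, filled where the adjusted p was under 0.05, vertical position within a row is arbitrary). PGD stands alone to the right in the oxidative branch. Filled points of the non-oxidative branch and of the list named other NADPH and NADP sources lie to the left of 0. The remaining lists have filled points on both sides.

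Genes with the most similar profile over the 6 libraries were sought by the Euclidean distance between log2 CPM values centred on each gene's mean, among genes whose log2 CPM averaged 3 or more. For PGD these were UBALD2 (distance 0.015, log2 fold change 0.27) and LRG1 (0.036, 0.28), and for NQO1 they were EHD4 (0.022, 0.27) and USP1 (0.030, 0.27). For TKT they were FDFT1 and PDHA1, for TXNRD1 NOM1 and NAA20, for GCLC GAREM2 and C21orf58, and for HMOX1 IRF7 and a clone-named gene. With 6 libraries in 2 groups, such likeness mostly reflects a similar size of change.

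The letters GGACT, a core form of the sequence motif that METTL3 methylates in mRNA, were counted in the longest protein-coding transcript of each gene in GENCODE v29. PGD held 4 in 1885 bases, or 2.12 per kb, and 93.0% of the 12922 genes with such a transcript had the same density or less. HMOX1 held 0 in 1822 bases. The other members held 1 to 3, or 0.525 to 1.11 per kb, against a median of 0.942 per kb over those 12922 genes. Methylation was not measured in these libraries, so the counts say only how often the letters occur.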

How the data were processed

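RNA of MOLM13 cells treated with DMSO or ZW27941 (3 libraries each) was sequenced by the authors. The deposited values are raw counts per gene symbol, and the submitters' processing notes name the build hg38, HISAT2, SAMtools 1.19.2 and HTSeq 2.0.3. The annotation release and the strand setting are not given in the sources used here. The 5 HTSeq tallies of unassigned reads, 37.4% to 39.8% of a library, were left out.

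Tests were run with edgeR 4.0.16 under R 4.3.3 (filterByExpr, TMM, quasi-likelihood test, Benjamini-Hochberg adjustment over 20399 genes), and no sample was excluded. Intervals (95%) come from the same fit. Locations, exon lengths and transcripts came from GENCODE v29, which is on the same build, and promoters from RefSeq. On simulated counts for ZW27941 against DMSO over 20399 genes, the fit recovered 24 of 50 genes changed by 0.15 on the log2 scale. It recovered 41 of 50 changed by 0.3 and 50 of 50 changed by 0.6. The simulation changed 200 genes in all, drawn from genes with a mean of at least 50 counts per library. It gave every gene the same spread. In the data 30.1% of genes passed and spreads differ, so these rates do not give the power of the test there.

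The 9 members, the lists, the pairs and the rule for named genes were chosen with earlier results of these data known. Named genes were the members, the 2 other genes of lowest p in each list, direct partners of members, and the 2 nearest profiles of each member past the threshold. Other list genes in the text were named after their values were seen. Alternatives were 3 other normalizations, 2 filters, DESeq2 1.42.0, edgeR's likelihood ratio test, a replicate block and each library left out. 1 gene of the lists, and the pair that holds it, is not reported here by name.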

Additional observations from a re-analysis of the deposited data

How the results depend on the processing

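PGD, NQO1 and TXNRD1 stayed higher, TKT stayed lower and GCLM stayed short of the threshold under all 14 alternatives. The log2 fold changes ran from 0.25 to 0.29 for PGD, from 0.25 to 0.29 for NQO1, from 0.069 to 0.10 for TXNRD1 and from −0.17 to −0.14 for TKT. For GCLC the change was 0.12 with upper quartile normalization, no longer past the threshold, and from 0.11 to 0.17 with 1 library left out. For HMOX1 it was −0.18 with library size only and −0.18 with no filter on low counts, both no longer past the threshold, and from −0.23 to −0.14 with 1 library left out. The number of members called lower was then 1 in both settings and from 1 to 2 with 1 library left out. Other normalizations moved the median log2 fold change of all genes by at most 0.023.

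Values near 0 changed sign. TALDO1 had −0.0032 with RLE normalization, −0.023 with upper quartile normalization, −0.0013 with at least 10 counts in every library, −0.0032 with DESeq2 and from −0.018 to 0.013 with 1 library left out. SRXN1 had −0.0041 with upper quartile normalization and from −0.030 to 0.092 with 1 library left out. GSR had 0.0018 with library size only and from −0.026 to 0.0084 with 1 library left out. PRDX1 passed as lower with upper quartile normalization (−0.066). The cause was not tested in any of these.

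Same-numbered libraries of the 2 conditions did not deviate together (correlations of their deviations from the group means from −0.057 to 0.051). Not every library correlated best with its own number, so the values gave no sign of pairing. The labels do not say whether same-numbered libraries were handled together. A replicate block gave 6010 genes called in place of 6149 and changed no call of a member, with 4 members higher and 2 lower. With the block, the log2 fold change of PGD was 0.28 (standard error 0.027), of HMOX1 −0.19 and of GCLC 0.14. SRXN1 had the fewest counts of the members, under 200 in every library. Whether this came from low expression, depth or reads left out in counting was not tested.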
